A study of Mus musculus with 75 samples.

Results

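The genes described here are the chaperone and heat shock genes of the mouse, followed through 5 groups of single cells from the cochlea. Members were taken by symbol from the table of raw read counts: the Hsp genes whose next character is a, b, d, e, h or 9, the Dnaja, Dnajb and Dnajc genes, the numbered Cct and Bag genes, and Cryab, with pseudogenes left out. The rule found 91 genes among the 55291 in the table and used no measured value. Of these, 71 passed the filter on low counts that 11443 genes of the table passed, and 4 (Dnajb8, Dnajc5g, Hspb7 and Hspb9) had no read in any of the 75 cells.

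The study asked whether adult supporting cells (SCs) given the transcription factors Atoh1 and Ikzf2 turn into outer hair cells (OHCs), the motile sensory cells that amplify sound. The 17 WT_P30 OHCs came from Slc26a5 CreER/+; Ai9/+ mice given tamoxifen at P20 and P21 and killed at P30, and this Cre is a knock-in at the gene for Prestin, the OHC motor protein. The 16 WT_P60 SCs, primarily pillar and Deiters' cells, came from Fgfr3-iCreER+; Ai9/+ mice given tamoxifen at P30 and P31 and killed at P60. The other 42 cells came from P60 mice labelled Fgfr3-Atoh1-Ikzf2-DTR, which carried the Cre line Fgfr3-iCreER+ with 2 conditional transgenes, CAG-LSL-Atoh1+ for Atoh1 and Rosa26 CAG-LSL-Ikzf2/+ for Ikzf2, and the allele Slc26a5 DTR/+. They had tamoxifen at P30 and P31 and diphtheria toxin, 20 ng/g, at P36, which removes endogenous OHCs through the DTR allele; the wild-type mice carried no DTR. The study sorted these 42 cells after sequencing by Myo7a and Prestin transcripts into 11 OHC-like cells (both genes), 16 nascent HCs (Myo7a alone) and 15 SCs failing to become HCs (neither), so those 2 genes cannot be read as results between the groups. All mice are labelled C57BL/6, and each cell was recognised by Tdtomato, picked by hand and made into its own Smart-Seq library.

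Chaperones bind unfolded or partly folded proteins and use ATP to hold or fold them. Hsp70 proteins are loaded with clients by J-domain proteins (the Dnaj genes) and emptied by nucleotide exchange factors such as the Hsp110 and Bag proteins. Hsp90 finishes kinases and hormone receptors, the CCT ring folds actin and tubulin, Hspd1 and Hspe1 form the mitochondrial chaperonin, and small heat shock proteins such as Cryab hold clients without ATP. A subset (among them Hspa1a, Hspa1b, Dnajb1, Hsph1 and Hspb1) is switched on by heat shock factor 1, and Hspa5, Hsp90b1 and Dnajc3 belong to the unfolded protein response of the endoplasmic reticulum (ER). Heat shock proteins have been studied in the cochlea for protection of hair cells from noise and ototoxic drugs.

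Levels are counts per 1000000 counts (CPM) of the TMM-scaled library, and a group's level is the mean over its cells, each weighing the same. Each sample is 1 cell and the labels name no animal, so cells cannot stand for animals, a group counts as 1 sample and no test between groups was made; SDs and ranges describe the picked cells only. Intervals on a share of cells (exact Clopper-Pearson) count the picked cells alone, leave out the spread between animals and test no difference between groups. A difference between groups is given as a log2 ratio of means after adding 1 CPM, which understates the change of low genes, and "past 4-fold" means a log2 ratio above 2 or under -2. Each label also carries a long serial number for its library, and jumps in these serials part the cells into 7 series, which the labels do not call batches. All WT_P30 OHCs fall in one series and all WT_P60 SCs in another, so that cell type, age, Cre line and series cannot be told apart there. Induced cells share no series with either wild type, and differ from both in the transgenes, the DTR allele, diphtheria toxin and OHC loss. In every comparison of induced with wild-type cells these cannot be told apart, and over WT_P30 OHCs age and Cre line differ too. Among the induced cells, only series B, D and E hold at least 2 OHC-like cells and 2 nascent HCs, and no series holds 2 SCs failing to become HCs beside 2 cells of either other group.

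The cells held 4264780 to 22934062 reads on genes. Genes with a read per cell were fewest in WT_P30 OHCs (mean 5803) and most in OHC-like cells (mean 9663), with 7851 in WT_P60 SCs, 9469 in nascent HCs and 8346 in SCs failing to become HCs. The summed OHC markers Slc26a5, Ocm, Myo7a and Tmc1 ran from 11595 to 43340 CPM in WT_P30 OHCs, from 81.3 to 6580 CPM in OHC-like cells, from 94.6 to 7213 CPM in nascent HCs and up to 43.0 CPM in SCs failing to become HCs; in WT_P60 SCs they reached 0.31 CPM, with Myo7a and Tmc1 at 0. Slc26a5 and Myo7a sorted the 3 induced groups, and Ocm and Tmc1 alone ran from 10141 to 41845 CPM in WT_P30 OHCs, from 0 to 5571 CPM in OHC-like cells, from 0 to 6481 CPM in nascent HCs, up to 13.9 CPM in SCs failing to become HCs and up to 0.15 CPM in WT_P60 SCs. The summed SC markers Sox2, Sox10, Bace2, Ceacam16, Fgfr3 and Gjb2 ran from 2094 to 9058 CPM in WT_P60 SCs, from 273 to 21050 CPM in SCs failing to become HCs, and stayed at 881 CPM or lower in OHC-like cells, 883 CPM in nascent HCs and 496 CPM in WT_P30 OHCs, where Sox2 and Sox10 were at 0. Of the other marker sets, the inner hair cell genes Slc17a8, Otof and Slc7a14 summed to a mean of 442 CPM in WT_P30 OHCs and to means of 4.41 CPM or less elsewhere. Among them only Otof passed the filter, with a log2 ratio of 7.81 for WT_P30 OHCs over WT_P60 SCs, and Slc7a14 had no read in WT_P30 OHCs. Blood genes reached 2306 CPM in 1 OHC-like cell, the endothelial genes up to 296 CPM in WT_P60 SCs, and the glial genes up to 169 CPM in OHC-like cells; fibroblast and macrophage genes reached at most 132 and 91.6 CPM. Their part in the chaperone values was not tested.

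To show where stress response sequence lies near these genes, promoter windows from 250 bases before to 50 bases after the start site were read from RefSeq (GRCm38.p6), and 73 of the 91 members had one. The 18 members without a window, Hsp90aa1 and Hsp90ab1 among them, were not searched. A heat shock element was searched as 3 alternating units, GAANNTTCNNGAA on either strand. It was present in 4 members (5.48%), against 179 of 27025 genes (0.662%). None of the 5 cytosolic Hsp70 genes that had a window held a match. Those 4 sites are printed 5′ to 3′ on the strand of the gene, with the element in capitals and the position of its first base counted from the start site. Hspd1 and Hspe1, transcribed away from each other on chromosome 1, share a single stretch at chr1:55088059-55088076 in which 2 matches overlap, at -144 for Hspd1 and -89 for Hspe1. The Dnajb6 site lies at chr5:29735852-29735864 on the plus strand, at -46, and the Hsph1 site at chr5:149636288-149636300 on the minus strand, at 37 downstream of the start.
Hspd1: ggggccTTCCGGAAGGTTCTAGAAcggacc
Hspe1: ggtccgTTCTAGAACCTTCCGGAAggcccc
Dnajb6: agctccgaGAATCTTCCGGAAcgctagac
Hsph1: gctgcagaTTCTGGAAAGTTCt

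The ER stress element, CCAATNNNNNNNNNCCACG on either strand, was present in 3 of the 73 members (4.11%) against 37 of all 27025 genes (0.137%), and these 3 are ER chaperone genes. Hspa5 holds it at chr2:34772025-34772043 on the plus strand at -65, Hsp90b1 holds it at chr10:86705638-86705656 (-212) and again, in the opposite sense, at chr10:86705533-86705551 (-107) on the minus strand, and Dnajc3 holds it at chr14:118937827-118937845 on the plus strand at -105. The capitals again mark the element. A match describes letters in the window, and says nothing of binding.
Hspa5: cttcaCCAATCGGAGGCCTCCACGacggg
Hsp90b1, first: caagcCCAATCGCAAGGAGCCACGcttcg
Hsp90b1, second: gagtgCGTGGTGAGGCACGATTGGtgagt
Dnajc3: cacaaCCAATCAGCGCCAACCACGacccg

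Most chaperone genes kept a level within 4-fold in the 8 comparisons made. Of the 71 members past the filter, 48 stayed within 4-fold in all 8 and 23 passed 4-fold in at least 1. Over all 10 pairs of groups 46 stayed within it: Dnajb14 and Dnajc16 passed 4-fold between WT_P30 OHCs and SCs failing to become HCs, with 87.2 against 19.2 CPM and 2.79 against 19.4 CPM. Neither count was made over all genes, so they cannot be read as particular to the members. Between 60.6% (OHC-like cells over WT_P30 OHCs) and 85.9% (OHC-like cells over nascent HCs) of the members lay within 2-fold, against 45.5% to 77.9% of all genes past the filter. The heat map shows the abundant genes (the Hsp90, Hsp70, CCT and class A J-domain genes) as bands of similar colour, with Hsp90aa1, Hspa4l, Dnajc6 and Cryab breaking the bands.

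**Figure D1:**
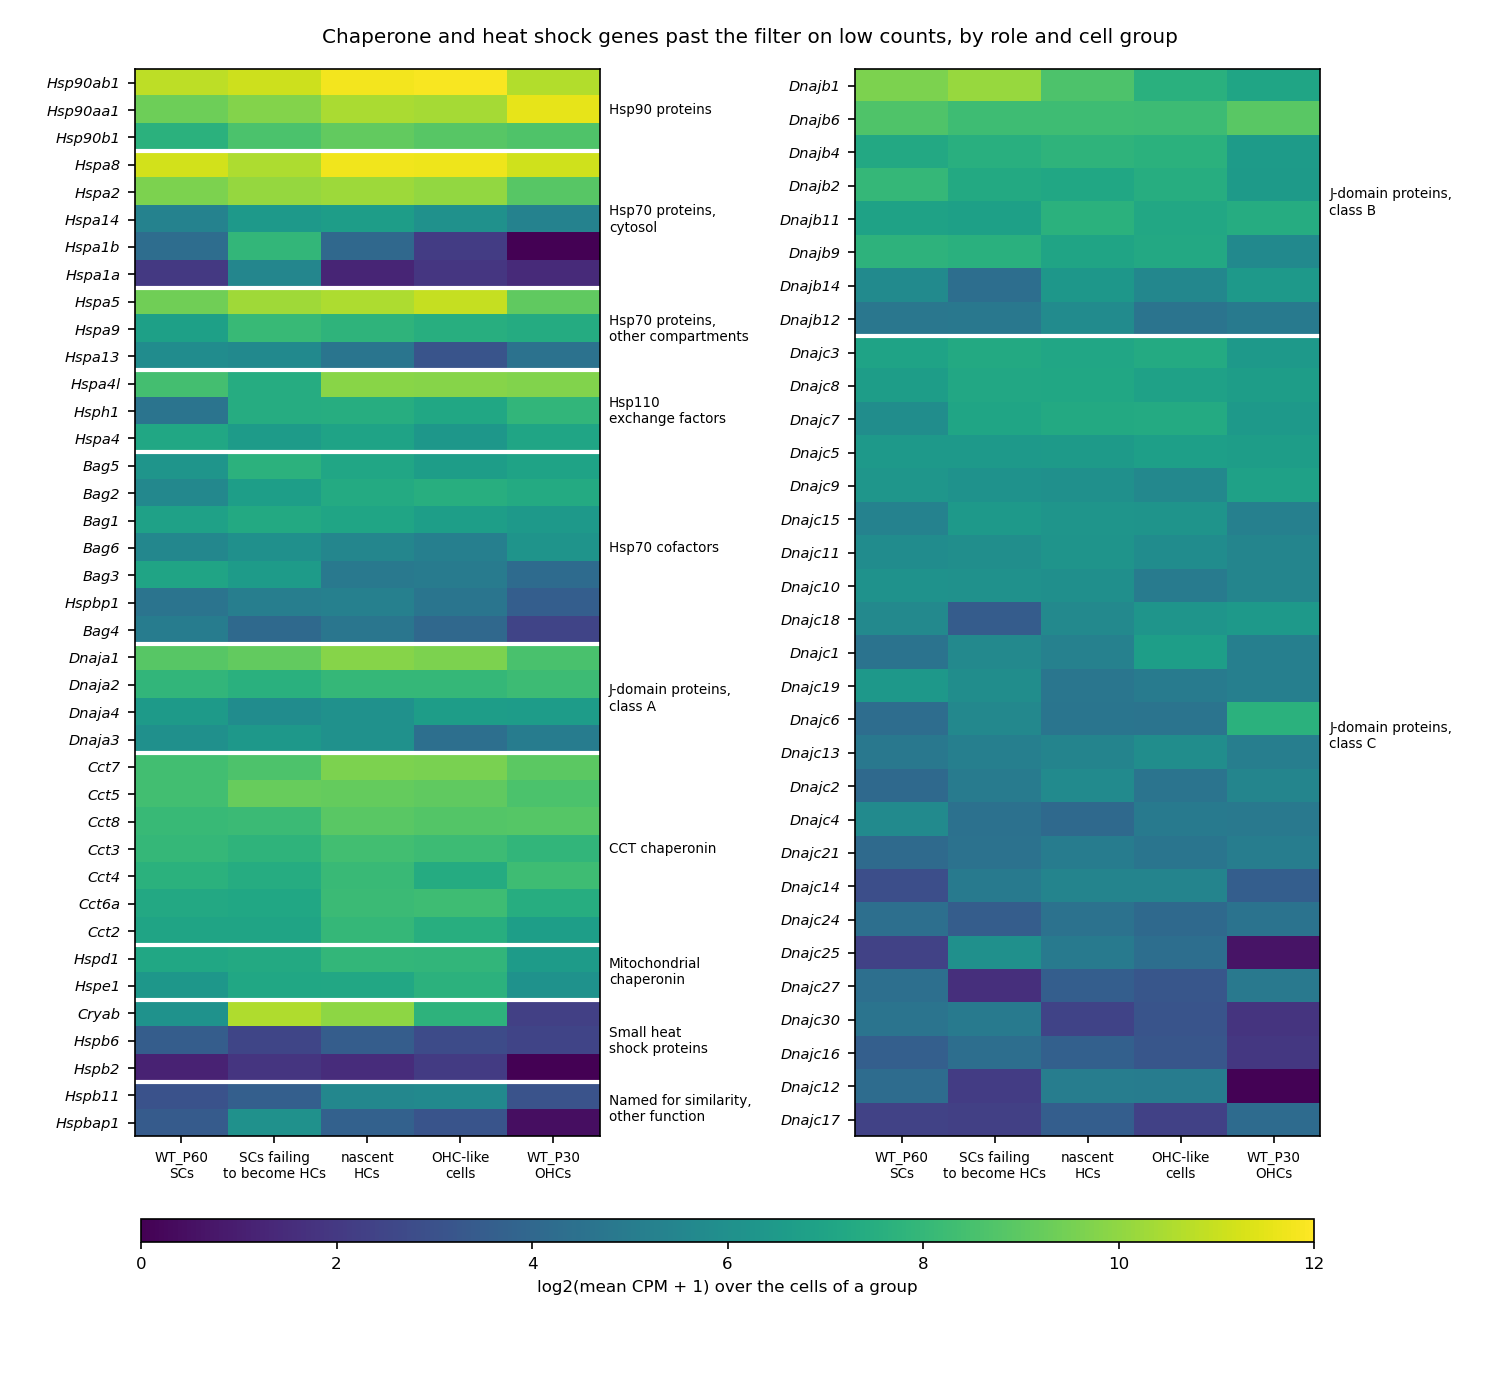
Heat map of the 71 members past the filter, in rows by role, over the 5 cell groups in columns; colour gives log2(mean CPM + 1) over the cells of a group. Hsp90aa1 is brightest in WT_P30 OHCs, Cryab in SCs failing to become HCs, and Hspa1b, Hspb2, Dnajc12, Dnajc25 and Hspbap1 are near 0 in WT_P30 OHCs.

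Counts past 4-fold, out of the 71 members past the filter, were set beside the share of all genes past the filter. Percents in brackets here and in the next paragraph are these shares of all genes. In WT_P30 OHCs over WT_P60 SCs, 3 members were higher (all genes 11.7%) and 9 lower (19.1%), with a median log2 ratio of -0.05 over the members and -0.13 over all genes (0.33 and 0.12 with DESeq2 size factors). In OHC-like cells over WT_P60 SCs, 4 were higher (16.3%) and 3 lower (8.98%), with medians of 0.36 and 0.30. In both comparisons the share of members past 4-fold was below that of all genes in each direction. In nascent HCs over WT_P60 SCs, 5 were higher (15.7%) and 2 lower (7.52%), with medians of 0.55 over the members and 0.32 over all genes. In SCs failing to become HCs over WT_P60 SCs, 7 were higher (12.7%) and 3 lower (5.76%), with medians of 0.26 and 0.22. These 7 were 4 without failing cell 6, and the 3 were 1 without WT_P60 SC 5.

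Between OHC-like cells and WT_P30 OHCs, 7 members were higher in the former (all genes 21.6%) and 1, Dnajc6, was lower (all genes 6.65%). The medians were 0.37 over the members and 0.54 over all genes (-0.05 and 0.14 with DESeq2 size factors). The lower count was 3 without OHC-like cell 5 and 2 without OHC-like cell 7 or 11. In OHC-like cells over SCs failing to become HCs, 4 were higher (9.49%) and 7 lower (8.31%), with medians of 0.05 for both. In nascent HCs over SCs failing to become HCs, 3 were higher (7.78%) and 4 lower (5.88%), with medians of 0.23 and 0.07 (-0.0068 and -0.12 with DESeq2 size factors); the 4 were 1 without failing cell 6, and the 3 were 5 without any one of nascent HCs 4, 7, 8, 9, 10, 11, 12, 15 and 16 or of failing cells 1, 8, 9 and 11. OHC-like cells and nascent HCs had the fewest members past 4-fold of the 8 comparisons, with 0 members higher (2.14%) and 1, Cryab, lower (3.37%), and medians of -0.15 and -0.01. The Cryab ratio of -2.18 was -0.52 without nascent HC 14. The count of 1 was 3 without OHC-like cell 9, and 2 without any one of OHC-like cells 3, 5, 7 and 8 or of nascent HCs 2, 3, 5, 6, 8, 9, 11, 13 and 15. Among these members only Hspa1b and Hspb2 lacked reads in a whole group, both in WT_P30 OHCs. Setting them at the floor of 3 reads per cell left each median of the members as given. In comparisons without WT_P30 OHCs this setting could change nothing. Over the 8 comparisons 63 member ratios were past 4-fold, and 40 of them stayed past it whichever single cell was left out. Of the 23 that did not, 7 rested on failing cell 6.

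**Figure D2:**
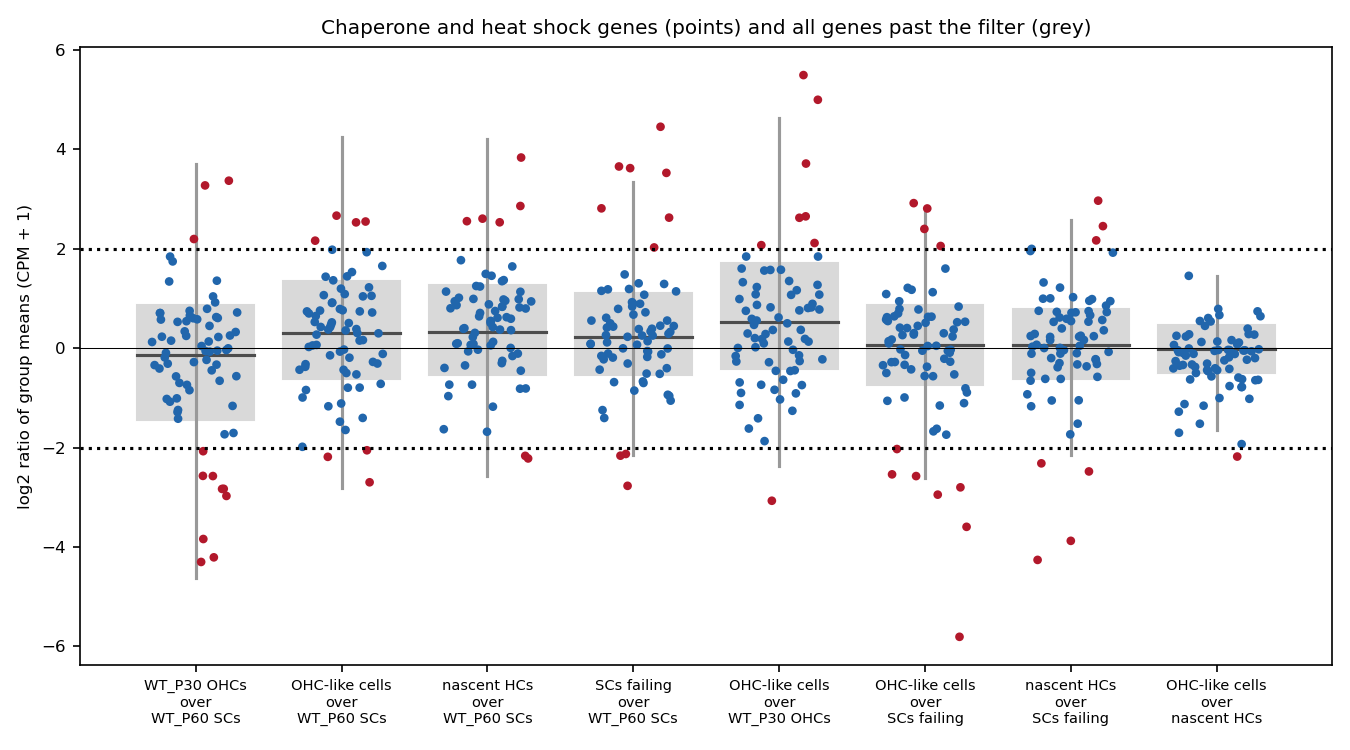
Log2 ratio of group means (CPM + 1) of the 71 members past the filter in each of the 8 comparisons, 1 point per gene, red past the dotted 4-fold lines; grey boxes span the middle 50% of all 11443 genes past the filter, with their median, and grey lines run from the 5th to the 95th percentile. Most points lie inside or near the boxes, and the highest are Cryab and Dnajc12 in OHC-like cells over WT_P30 OHCs at 5.49 and 5.00.

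Hsp90 genes differed between the groups each in its own way. Hsp90aa1, the stress-inducible cytosolic Hsp90 (chromosome 12, 110690605 to 110702728, minus strand, GRCm38), had 2995 CPM in WT_P30 OHCs (lowest 1254, median 2898, highest 5611) and 653 CPM in WT_P60 SCs (lowest 286, median 580, highest 1042). Every OHC was above every SC, a log2 ratio of 2.20. It was the single member whose OHC and SC ranges did not overlap with OHCs higher (1.08% of all genes) and no member did so with OHCs lower (1.96% of all genes). The induced cells lay between, at 1356 CPM in OHC-like cells (lowest 661, median 1361, highest 2211), 1434 CPM in nascent HCs (lowest 481, median 1331, highest 2964) and 870 CPM in SCs failing to become HCs (lowest 179, median 728, highest 1697). Their ranges overlapped with those of both wild-type groups. Summed over cells, Hsp90aa1 took 351086 reads in OHCs, 3324 CPM (exact Poisson 95% interval 3313 to 3335), and 74414 reads in SCs, 661 CPM (656 to 666); such intervals cover counting error only, and reads without molecular identifiers are not independent molecules.

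Hsp90ab1, the constitutive cytosolic partner (chromosome 17, 45567775 to 45573271), followed another order. It had 3741 CPM in OHC-like cells (lowest 2376, median 3774, highest 4819) and 3581 CPM in nascent HCs (lowest 2044, median 3371, highest 5877), above 1816 CPM in WT_P60 SCs (lowest 841, median 1932, highest 2528), 1595 CPM in WT_P30 OHCs (lowest 145, median 1733, highest 3188) and 2165.6 CPM in SCs failing to become HCs (lowest 130.5, median 2254, highest 4062). The OHC-like cells were thus above both wild-type groups, by log2 ratios of 1.04 over SCs and 1.23 over OHCs, although the ranges overlapped. Across cells the pair showed no shared order in the wild types or in SCs failing to become HCs. The Spearman correlation was 0.04 in 16 WT_P60 SCs, -0.38 in 17 WT_P30 OHCs and -0.004 in 15 SCs failing to become HCs. It was 0.55 in 11 OHC-like cells and 0.56 in 16 nascent HCs. Both values of a cell come from 1 library. Per kilobase of exon, Hsp90aa1 was the first member in WT_P30 OHCs at 762 CPM per kilobase and Hsp90ab1 the first in WT_P60 SCs, OHC-like cells and nascent HCs at 606, 1247 and 1194.

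Hsp90b1, the ER Hsp90 with the 2 ER stress elements printed above, had 201 CPM in WT_P60 SCs, 414 CPM in WT_P30 OHCs, 470 CPM in OHC-like cells, 552 CPM in nascent HCs and 382 CPM in SCs failing to become HCs. It was the lowest in SCs, and no ratio passed 4-fold.

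**Figure D3:**
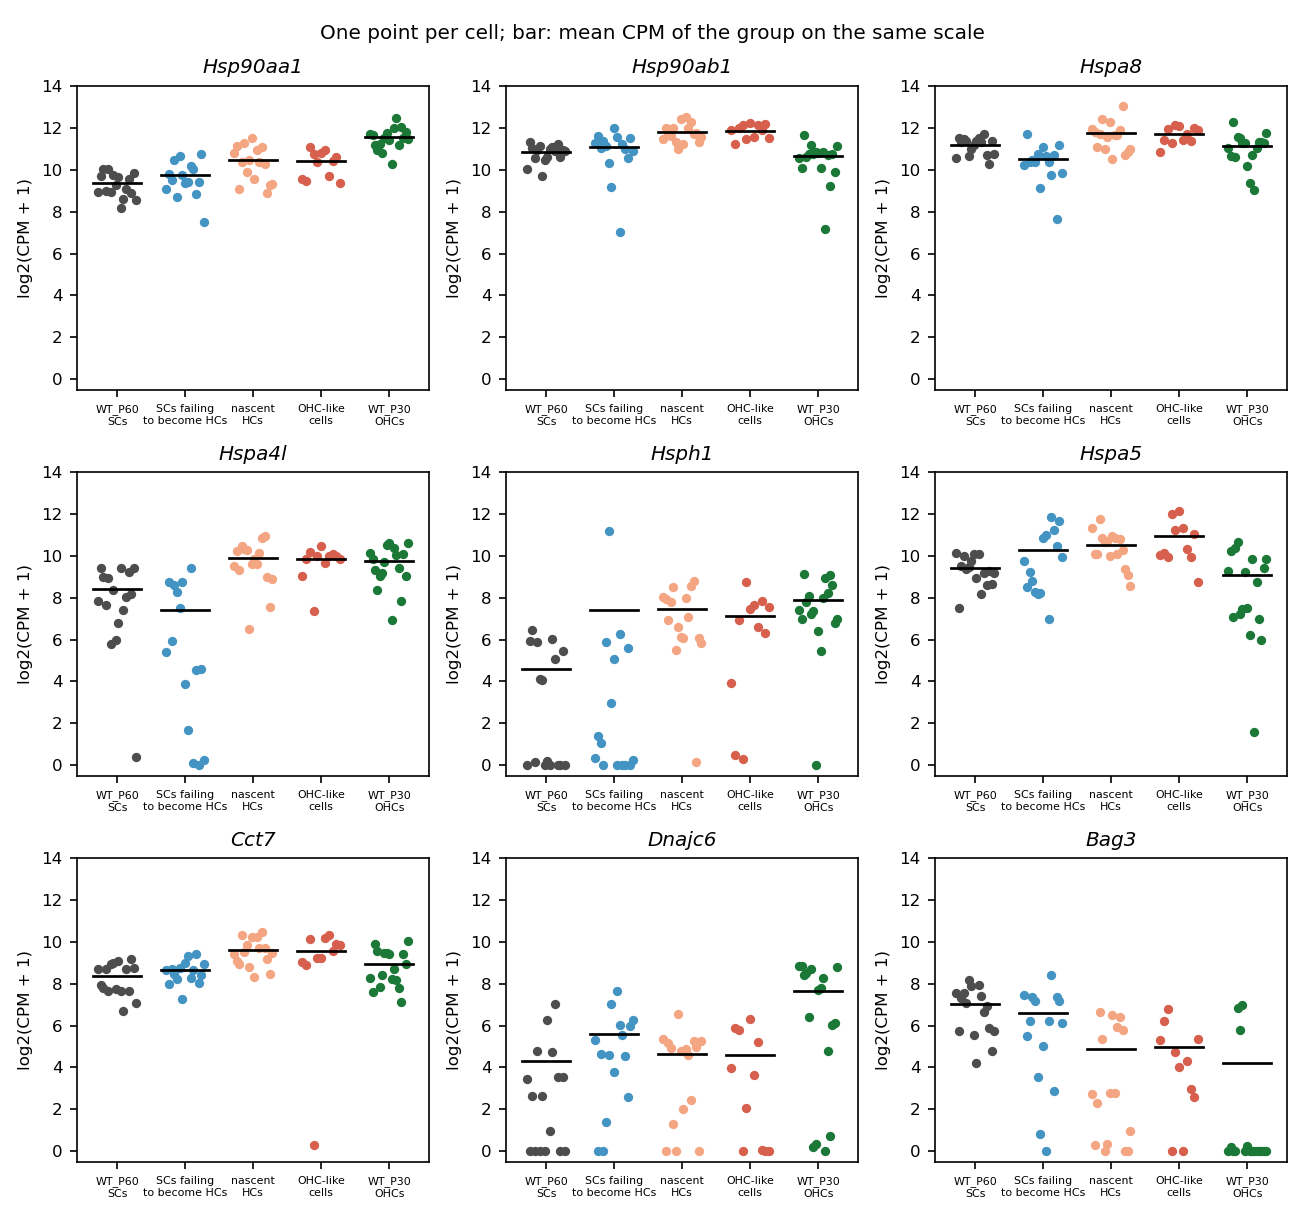
Levels of 9 members in single cells, 1 panel per gene, with log2(CPM + 1) on the vertical axis, 1 point per cell and a bar at the group mean. Hsp90aa1 separates WT_P30 OHCs from WT_P60 SCs, Hsph1 has one failing cell at 2331 CPM and 5 at 0, and Dnajc6 and Bag3 split WT_P30 OHCs into cells with and without reads.

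Of the cytosolic Hsp70 genes, the constitutive Hspa8 (chromosome 9, 40800984 to 40810087) was abundant everywhere. It had 2330 CPM in WT_P60 SCs (lowest 1242, median 2583, highest 3381) and 2250 CPM in WT_P30 OHCs (lowest 517, median 2443, highest 4903), ranges that overlapped. OHC-like cells at 3307 CPM (lowest 1815, median 3397, highest 4441) and nascent HCs at 3408 CPM (lowest 1446, median 3217, highest 8454) lay above SCs failing to become HCs at 1464 CPM (lowest 199, median 1337, highest 3374), by log2 ratios of 1.17 and 1.22. Hspa2, best known from male germ cells but expressed more widely, had 795 CPM in WT_P60 SCs, 476 CPM in WT_P30 OHCs, 1068 CPM in OHC-like cells, 1215 CPM in nascent HCs and 1087 CPM in SCs failing to become HCs. Its lowest level was thus in OHCs, and it had reads in every cell.

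The heat-inducible pair Hspa1a (chromosome 17, 34969190 to 34972156) and Hspa1b (34956436 to 34959238) was close to silent outside a few cells. Hspa1b had no read in any of the 17 WT_P30 OHCs, and 18.7 CPM in WT_P60 SCs (lowest 0, median 0, highest 184), which makes it at least 42.3-fold lower in OHCs against a floor of 3 reads per cell, or at least 17.4-fold without WT_P60 SC 16 at 184 CPM. In OHC-like cells it had 3.33 CPM (highest 15.0), a log2 ratio of -2.19 over SCs that was -1.01 without WT_P60 SC 16 and at least 7.52-fold higher than in OHCs, and in nascent HCs 15.5 CPM (highest 98.8). SCs failing to become HCs had 242 CPM (lowest 0, median 0.16, highest 2870), a mean set by failing cell 6 at 2870 CPM and failing cell 10 at 449 CPM, with 7 of the 15 cells without a read. The log2 ratio of 3.62 over WT_P60 SCs was 1.49 without failing cell 6. Hspa1a had 555 CPM in failing cell 6 and 110 CPM in failing cell 10, the same 2 cells that led in Hspa1b. In other groups it was read apart from Hspa1b, as in WT_P30 OHC 1 at 28.5 CPM with no Hspa1b read. Its mean of 44.8 CPM there compared with 2.97 CPM in WT_P60 SCs, 1.68 CPM in WT_P30 OHCs, 2.79 CPM in OHC-like cells and 1.39 CPM in nascent HCs. The 2 genes share 60.3% (Hspa1a) and 62.3% (Hspa1b) of their 50-base words with other genes, above all with each other, so the split of reads between them is uncertain.

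Failing cell 6 was also far above its group in Hsph1, an Hsp110 exchange factor with a heat shock element in its promoter window (chromosome 5, 149614287 to 149636376). Hsph1 was at 2331 CPM there, while the other 14 cells of the group were at 76.6 CPM or lower and 5 had no read. The group mean of 170 CPM and its log2 ratio of 2.81 over WT_P60 SCs therefore rest on that cell, and the ratio is -0.52 without it. In the other groups WT_P30 OHCs had 235 CPM of Hsph1 (lowest 0, median 168, highest 568), nascent HCs 176 CPM (lowest 0.13, median 128, highest 444) and OHC-like cells 140 CPM (lowest 0.22, median 120, highest 435), against 23.4 CPM in WT_P60 SCs (lowest 0, median 8.04, highest 85.8). It was detected at 1 CPM or more in 16 of 17 OHCs and in 8 of 16 SCs. The log2 ratios over SCs were 3.27 for OHCs, 2.86 for nascent HCs and 2.53 for OHC-like cells, and each stayed past 4-fold whichever cell was left out.

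Hspa4l, another Hsp110 gene (chromosome 3, 40744495 to 40796103), divided the induced cells. OHC-like cells had 911 CPM (lowest 165, median 1003, highest 1397) and nascent HCs 947 CPM (lowest 90.9, median 846, highest 1970), close to 852 CPM in WT_P30 OHCs (lowest 121, median 838, highest 1558). WT_P60 SCs had 336 CPM (lowest 0.31, median 278, highest 691) and SCs failing to become HCs 172 CPM (lowest 0, median 41.1, highest 688). The log2 ratios over SCs failing to become HCs were 2.40 for OHC-like cells and 2.45 for nascent HCs, and stayed at 2.30 and 2.35 or above with any cell left out. Hspa4l and the summed SC markers ran in opposite order in failing cells (Spearman correlation -0.72 over 15 cells) and OHC-like cells (-0.56 over 11 cells). The value was 0.42 in 16 WT_P60 SCs, 0.38 in 16 nascent HCs and 0.15 in 17 WT_P30 OHCs. These numbers describe cells whose 2 values share 1 library. The third Hsp110 gene, Hspa4, lay between 79.4 and 139 CPM in all groups.

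The Hsp70 of the ER, Hspa5 (BiP, chromosome 2, 34771970 to 34777547), which holds the ER stress element printed above, was higher in the induced cells. It had 1943 CPM in OHC-like cells (lowest 429, median 1285, highest 4493), 1480 CPM in nascent HCs (lowest 380, median 1409, highest 3421) and 1252 CPM in SCs failing to become HCs (lowest 124, median 873, highest 3665). WT_P60 SCs had 672 CPM (lowest 184, median 634, highest 1112) and WT_P30 OHCs 541 CPM (lowest 1.97, median 427, highest 1613). The ranges overlapped in every comparison and the largest log2 ratio was 1.84, of OHC-like cells over OHCs. The mitochondrial Hsp70, Hspa9, ranged from 110 CPM in WT_P60 SCs to 274 CPM in SCs failing to become HCs. Hspa13, a microsomal Hsp70 relative, was low, with 55.9 CPM in WT_P60 SCs and 7.75 CPM in OHC-like cells, where 7 of 11 cells had no read, a log2 ratio of -2.70.

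Among the Bag cofactors, Bag3, which links Hsp70 to small heat shock proteins and to autophagy (chromosome 7, 128523616 to 128546981), had its highest mean in WT_P60 SCs. It had 130 CPM in WT_P60 SCs (lowest 17.5, median 128, highest 291), with a read in all 16 cells, and 95.8 CPM in SCs failing to become HCs (lowest 0, median 72.7, highest 337). WT_P30 OHCs had 17.3 CPM (lowest 0, median 0, highest 127), with 12 of 17 cells without a read, OHC-like cells 30.4 CPM (lowest 0, median 18.8, highest 111) and nascent HCs 28.1 CPM (lowest 0, median 5.69, highest 100.1). The log2 ratios over WT_P60 SCs were -2.83, -2.06 and -2.17, and that of OHC-like cells was -1.92 without OHC-like cell 7. Bag4, which holds back death receptor signalling, had 32.1 CPM in WT_P60 SCs and 4.58 CPM in WT_P30 OHCs, a log2 ratio of -2.57. Bag2 went the other way, with its lowest level in WT_P60 SCs at 15.3 CPM per kilobase of exon. It had 52.1 in WT_P30 OHCs, 59.4 in OHC-like cells, 53.1 in nascent HCs and 34.5 in SCs failing to become HCs. Bag1, Bag2, Bag5 and Bag6 passed 4-fold in none of the 8 comparisons.

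Of the 4 class A J-domain genes, the heat-responsive Dnaja1 was the most abundant, at 474 CPM in WT_P60 SCs, 376 CPM in WT_P30 OHCs, 792 CPM in OHC-like cells, 910 CPM in nascent HCs and 556 CPM in SCs failing to become HCs. Dnaja3, the mitochondrial member, passed 4-fold once, at 19.8 CPM in OHC-like cells against 84.0 CPM in SCs failing to become HCs, and that log2 ratio of -2.03 was -1.53 without failing cell 6.

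Dnajb1, the class B partner of inducible Hsp70 (chromosome 8, 83608193 to 83612653), varied widely within groups. WT_P60 SCs had 781 CPM (lowest 6.54, median 339, highest 3260) and SCs failing to become HCs 1148 CPM (lowest 0, median 150, highest 6759). WT_P30 OHCs had 130 CPM (lowest 0, median 92.6, highest 632), OHC-like cells 197 CPM (lowest 0.41, median 139, highest 547) and nascent HCs 400 CPM (lowest 63.3, median 302, highest 1060). The log2 ratio of OHCs over SCs was -2.57, and that of OHC-like cells over SCs failing to become HCs was -2.54, or -1.92 without failing cell 9. By medians, SCs failing to become HCs lay below nascent HCs although their mean was higher.

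The cells high in Dnajb1 were high in immediate early genes, a list that responds to stimulation and to handling of tissue. Over a list of 12 such genes summed per cell, the Spearman correlation with Dnajb1 was 0.68 in 16 WT_P60 SCs and 0.66 in 15 SCs failing to become HCs, against 0.22 in 17 WT_P30 OHCs, -0.14 in 11 OHC-like cells and 0.37 in 16 nascent HCs. Failing cell 9 held the highest value of both, 6759 CPM of Dnajb1 and 41212 CPM of summed immediate early genes, and WT_P60 SC 16 held 2382 and 22126 CPM. The summed immediate early genes averaged 10060 CPM in WT_P60 SCs (lowest 2396, median 8506, highest 22126), 834 CPM in WT_P30 OHCs (lowest 1.78, median 191, highest 3741), 2298 CPM in OHC-like cells, 3958 CPM in nascent HCs and 11387 CPM in SCs failing to become HCs (lowest 672, median 6724, highest 41212). Of the 11 past the filter, 9 were past 4-fold lower in OHCs over SCs (all genes 19.1%) and none higher (11.7%). Both values of a cell share its library and depth, and the part of handling in Dnajb1 was not tested. Failing cell 6, by contrast, with the highest Hspa1a, Hspa1b and Hsph1, had 3349 CPM of summed immediate early genes and 1064 CPM of Dnajb1.

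**Figure D4:**
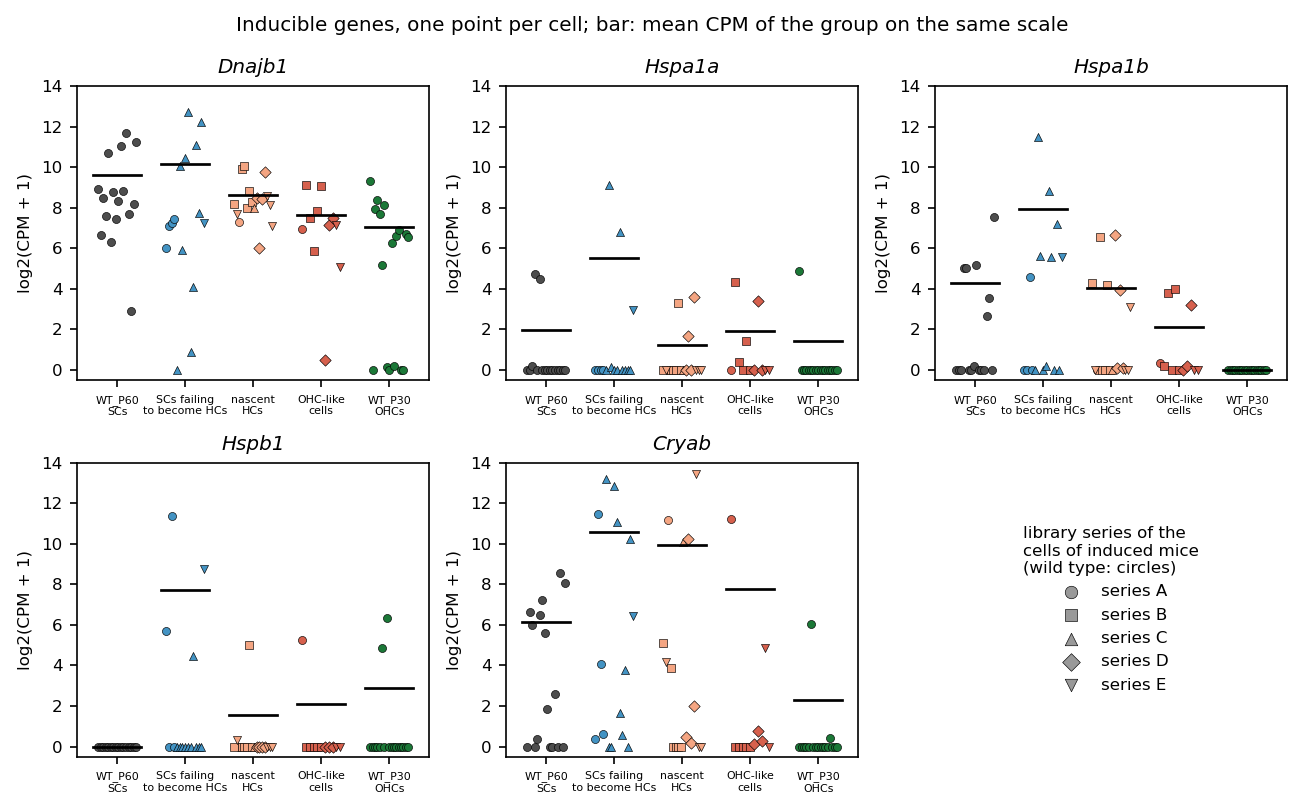
Levels of 5 inducible members in single cells, with log2(CPM + 1) on the vertical axis, 1 point per cell, a bar at the group mean and the symbol giving the library series of induced cells. Hspa1a and Hspb1 have no read in most cells of every group, and Hspa1a, Hspb1 and Cryab reach 555, 2598 and 11181 CPM in single induced cells.

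Of the ER members of class B, Dnajb9 had 216 CPM in WT_P60 SCs and 50.5 CPM in WT_P30 OHCs, a log2 ratio of -2.07 that was -1.96 without WT_P60 SC 2, and Dnajb11 ranged from 111 to 201 CPM over the groups. Dnajb6, whose window holds a heat shock element, ranged from 303 CPM in OHC-like cells to 490 CPM in WT_P30 OHCs.

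Class C holds the J-domain genes with specialised tasks. Dnajc6, which encodes auxilin, the factor that directs Hsc70 to strip clathrin from endocytic vesicles (chromosome 4, 101496648 to 101642799), had 203 CPM in WT_P30 OHCs (lowest 0, median 205, highest 458). WT_P60 SCs had 18.7 CPM (lowest 0, median 5.20, highest 128), OHC-like cells 23.3 CPM (lowest 0, median 11.5, highest 78.2), nascent HCs 24.4 CPM (lowest 0, median 27.6, highest 92.8) and SCs failing to become HCs 47.3 CPM (lowest 0, median 23.9, highest 202). Of the 17 OHCs, 13 had 1 CPM or more (76.5%, exact Clopper-Pearson 95% interval 50.1% to 93.2%), against 9 of 16 SCs (56.2%, 29.9% to 80.2%). The log2 ratio was 3.37 over SCs and that of OHC-like cells over OHCs was -3.07; each stayed past 4-fold whichever cell was left out. Dnajc5, the cysteine string protein of synaptic vesicles, lay between 85.4 and 110 CPM in all groups.

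Dnajc12, a cytosolic J-domain protein that works with Hsp70 on aromatic amino acid hydroxylases (chromosome 10, 63382443 to 63410576), was nearly absent from OHCs, with 4 reads in all of the 17 cells and 0.04 CPM. OHC-like cells had 32.1 CPM (lowest 0, median 13.5, highest 167), nascent HCs 33.3 CPM (lowest 0, median 32.0, highest 120), WT_P60 SCs 18.2 CPM (lowest 0, median 0.20, highest 72.0) and SCs failing to become HCs 3.39 CPM (lowest 0, median 0, highest 25.4). Among the induced cells 11 of 16 nascent HCs and 7 of 11 OHC-like cells had 1 CPM or more, against 2 of 15 failing cells (13.3%, exact 95% interval 1.66% to 40.5%). The log2 ratio was 5.00 in OHC-like cells over OHCs, 2.92 over SCs failing to become HCs, and -2.13 in failing cells over WT_P60 SCs, or -1.83 without WT_P60 SC 8.

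Dnajc18 showed a like division among induced cells, with 76.7 CPM in OHC-like cells (lowest 0.08, median 77.3, highest 211) and 48.8 CPM in nascent HCs (lowest 0.10, median 47.7, highest 134) against 10.1 CPM in SCs failing to become HCs (lowest 0, median 0, highest 66.4). Wild-type OHCs had 84.9 CPM and SCs 48.6 CPM. Its log2 ratio was 2.81 for OHC-like cells over failing cells; the 2.17 for nascent HCs was 1.99 without nascent HC 11, and the -2.16 for failing cells over WT_P60 SCs was -1.89 without WT_P60 SC 5.

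Dnajc25 and Dnajc14 were higher in all 3 induced groups than in SCs. Dnajc25, which has an ER J domain, had 63.4 CPM in SCs failing to become HCs (lowest 0, median 53.9, highest 311), 30.1 CPM in nascent HCs and 19.2 CPM in OHC-like cells, against 4.11 CPM in WT_P60 SCs and 0.54 CPM in WT_P30 OHCs, each of these from 1 or 2 cells at 1 CPM or more. Its exons overlap those of Gm20503 on the same strand, so part of its reads are uncertain. Dnajc14 had 41.6 CPM in OHC-like cells, 41.8 CPM in nascent HCs and 28.7 CPM in SCs failing to become HCs, against 6.28 CPM in WT_P60 SCs and 10.9 CPM in WT_P30 OHCs; its ratio in failing cells, 2.03, was 1.69 without failing cell 3. Its exons overlap those of Sarnp, Ormdl2 and Tmem198b. Dnajc1, an ER J-domain protein, was past 4-fold in OHC-like cells over WT_P60 SCs (105 against 22.8 CPM, log2 ratio 2.16), and 1.47 without OHC-like cell 4 at 511 CPM, the cell with the fewest detected genes of its group. Dnajc27 was low in failing cells (2.08 against 20.0 CPM in WT_P60 SCs, log2 ratio -2.77). Dnajc30, a mitochondrial J-domain gene whose exon overlaps Bud23 on the opposite strand, was 23.6 CPM in WT_P60 SCs with a read in 15 of 16 cells, and 2.45 CPM in WT_P30 OHCs and 4.28 CPM in nascent HCs, log2 ratios of -2.83 and -2.22. Its level in SCs failing to become HCs, 28.5 CPM, gave nascent HCs a log2 ratio of -2.48, or -1.42 without failing cell 4.

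The CCT ring is built from 8 different subunits, and 7 Cct genes passed the filter. All 7 were above WT_P60 SCs in nascent HCs (median log2 ratio 0.83) and 6 of 7 in OHC-like cells (median 0.70), with Cct4 the exception at 164 against 199 CPM. In SCs failing to become HCs the median was -0.00 and 3 of 7 were above. No Cct gene passed 4-fold. Cct7 had 761 CPM in OHC-like cells and 784 CPM in nascent HCs (lowest 322, median 720, highest 1407), against 331 CPM in WT_P60 SCs (lowest 103, median 330, highest 573), 496 CPM in WT_P30 OHCs and 395 CPM in SCs failing to become HCs. Cct5 had 593 CPM in SCs failing to become HCs, 539 CPM in OHC-like cells and 577 CPM in nascent HCs; without failing cell 6, at 2308 CPM, the failing mean was 470.5 CPM, below both. OHC-like cell 4 had under 1 CPM of Cct2, Cct3, Cct4, Cct7 and Cct8 while the other 10 OHC-like cells had 1 CPM or more of each but Cct2. Summed, the Cct genes made 0.170% of reads in WT_P60 SCs, 0.192% in SCs failing to become HCs, 0.238% in WT_P30 OHCs, 0.257% in OHC-like cells and 0.285% in nascent HCs. Cct6b, the testis form, failed the filter and had reads in 8 cells. Tcp1, the gene of the remaining ring subunit, falls outside the symbol rule and is not in these sums. It had 216 CPM in WT_P60 SCs, 168 CPM in WT_P30 OHCs, 261 CPM in OHC-like cells, 376 CPM in nascent HCs and 196 CPM in SCs failing to become HCs.

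Both genes of the mitochondrial chaperonin, which share the heat shock element printed above, were read in every OHC-like cell and nascent HC. Hspd1 had 238 CPM in OHC-like cells and 245 CPM in nascent HCs, against 140 CPM in WT_P60 SCs, 94.4 CPM in WT_P30 OHCs and 154 CPM in SCs failing to become HCs. Hspe1 had 211 and 145 CPM in the same 2 groups, against 81.5, 69.0 and 142 CPM in the other 3, in the same order. Without OHC-like cell 4, at 1048 CPM, the OHC-like mean of Hspe1 was 128 CPM, below that of failing cells. Despite the shared stretch, their order across cells was loosely linked at most, with Spearman correlations of 0.47 in WT_P60 SCs, -0.08 in WT_P30 OHCs, -0.06 in OHC-like cells, -0.05 in nascent HCs and 0.40 in SCs failing to become HCs. Their exons overlap on opposite strands, so some reads may be assigned to either.

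Small heat shock proteins varied widely between cells of the same group. Cryab (alpha B-crystallin, chromosome 9, 50751325 to 50756636) had 1523 CPM in SCs failing to become HCs (lowest 0, median 12.5, highest 9202), 991 CPM in nascent HCs (lowest 0, median 1.70, highest 11181), 218 CPM in OHC-like cells (lowest 0, median 0, highest 2366), 68.5 CPM in WT_P60 SCs (lowest 0, median 3.86, highest 374) and 3.85 CPM in WT_P30 OHCs (lowest 0, median 0, highest 65.1). Failing cells 5, 8, 2, 9 and 14 held 9202, 7399, 2832, 2121 and 1180 CPM, nascent HCs 14, 3, 11 and 9 held 11181, 2310, 1220 and 1084 CPM, and OHC-like cell 1 held 2366 CPM. These 10 cells were each above the highest wild-type cell, WT_P60 SC 14 at 374 CPM. They came from series A, C, D and E; the 11 induced cells of series B were at 33.1 CPM or lower. The mean of OHC-like cells rests on 1 cell: the log2 ratio over WT_P30 OHCs of 5.49 was -0.33 without it. Cryab overlaps Hspb2 on the opposite strand, which stayed at 34.0 CPM or lower in all cells and had no read in OHCs; its mean of 3.21 CPM in OHC-like cells, at least 7.23-fold higher than in OHCs, came almost whole from OHC-like cell 1.

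Hspb1 (Hsp27), which failed the filter and was picked out after its values were seen, had no read in 16 WT_P60 SCs and 207 CPM in SCs failing to become HCs. That mean came from failing cells 3 and 15 at 2598 and 436 CPM, with 51.6 CPM in failing cell 1, 20.8 CPM in failing cell 11 and no read in 11 cells. OHCs had reads in 2 of 17 cells (79.3 and 27.6 CPM), OHC-like cells in 1 (36.6 CPM) and nascent HCs in 2 (highest 31.0 CPM). The cells high in Hspb1 were not those high in Cryab or Hspa1b: failing cell 3 had 15.6 CPM of Cryab, and failing cell 6 had no Hspb1 read.

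A pair of members carry the name without being heat shock proteins. Hspb11, an intraflagellar transport subunit (IFT25, chromosome 4, 107253593 to 107279938), had 50.4 CPM in OHC-like cells (lowest 0, median 34.4, highest 125) and 45.8 CPM in nascent HCs (lowest 0, median 25.1, highest 186), against 7.09 CPM in WT_P60 SCs, 7.33 CPM in WT_P30 OHCs and 11.4 CPM in SCs failing to become HCs. It reached 1 CPM in 9 of 11 OHC-like cells and 13 of 16 nascent HCs, but in 4 of 16 SCs and 4 of 17 OHCs (81.8%, 81.2%, 25.0% and 23.5% of the cells, with exact 95% intervals of 48.2% to 97.7%, 54.4% to 96.0%, 7.27% to 52.4% and 6.81% to 49.9%). The log2 ratios over SCs were 2.67 and 2.53 and stayed past 4-fold with any cell left out; the 2.06 of OHC-like over failing cells was 1.83 without OHC-like cell 10. Hspbap1, which binds Hspb1, had 65.9 CPM in SCs failing to become HCs (lowest 0, median 4.63, highest 337) against 9.83 CPM in WT_P60 SCs and 0.38 CPM in WT_P30 OHCs, and the highest cells were failing cells 10 and 6, which also led in Hspa1b. Its log2 ratio was -2.97 for OHCs over SCs and 2.63 for failing cells over SCs.

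The members together took a larger share of reads in the induced cells than in SCs. The share was 1.38% ± 0.19 (SD, n = 16 cells) in WT_P60 SCs, 1.70% ± 0.51 (SD, n = 15 cells) in SCs failing to become HCs, 1.73% ± 0.26 (SD, n = 17 cells) in WT_P30 OHCs, 1.97% ± 0.48 (SD, n = 11 cells) in OHC-like cells and 2.12% ± 0.39 (SD, n = 16 cells) in nascent HCs. Nascent HCs ran from 1.55% to 2.78% and WT_P60 SCs from 1.02% to 1.69%, so that the ranges met only at their ends, while SCs failing to become HCs, from 1.14% to 2.56%, spanned both. The median share in SCs failing to become HCs was 1.55%. Small heat shock genes made a mean of 0.174% of reads in failing cells (median 0.0053%) and 0.0998% in nascent HCs (median 0.0020%). The mean was 0.0237% in OHC-like cells and 0.0084% in WT_P60 SCs, and nascent HC 14 alone had 1.12%. The Hsp90 genes alone made 0.273% of reads in SCs, 0.324% in failing cells, and 0.519% to 0.552% in the 3 hair cell groups. WT_P30 OHCs detected the fewest members at 1 CPM (mean 42.0 of 91) and nascent HCs the most (61.8).

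**Figure D5:**
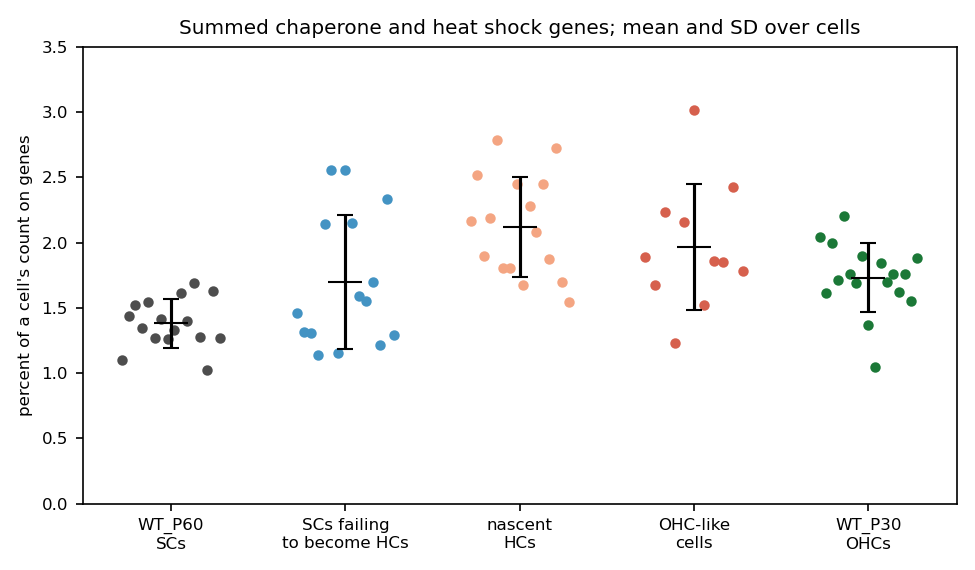
Summed reads of the 91 members as a percent of a cell's reads on genes, 1 point per cell, with mean and SD over cells. Nascent HCs average 2.12% and WT_P60 SCs 1.38%.

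OHC-like cells and nascent HCs were also compared within the 3 series that hold both groups. Hsp90ab1 had log2 ratios of OHC-like cells over nascent HCs of 0.15 in series B (5 and 6 cells), -0.28 in series D (3 and 4 cells) and 0.20 in series E (2 and 4 cells). Hsp90aa1 had -0.23, -0.30 and 0.17 in the same series. Dnajb1 was lower in OHC-like cells in each, at -0.84, -1.95 and -1.55, with an overall ratio of -1.02. Cryab had 0, 0.32 and 13.8 CPM in OHC-like cells against 7.81, 306 and 2799 CPM in nascent HCs, or -3.14, -7.86 and -7.57. Each Cryab ratio rests on 1 nascent HC: it was -1.90 in series B without nascent HC 1, -0.72 in series D without nascent HC 11, and in series E the direction turned, to 1.15, without nascent HC 14.

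Genes of the same pathways outside the family were read from lists. Of 16 ER folding and stress genes, 2 were past 4-fold higher and 3 lower in WT_P30 OHCs over WT_P60 SCs (median log2 ratio -0.30), 2 higher and 0 lower in OHC-like cells over SCs (1.19), and 4 higher and 1 lower in nascent HCs over SCs (1.01). None passed 4-fold in failing cells over SCs (0.67), and 5 were higher and 0 lower in OHC-like cells over OHCs (1.52). Over all genes the medians of these 5 comparisons were -0.13, 0.30, 0.32, 0.22 and 0.54, and the shares past 4-fold are those given above. Creld2, an ER stress-induced chaperone-like gene, had 684 CPM in OHC-like cells and 326 CPM in nascent HCs, against 40.6 CPM in WT_P60 SCs, 209 CPM in WT_P30 OHCs and 79.8 CPM in SCs failing to become HCs. Hyou1, the ER Hsp110, was instead highest in WT_P30 OHCs at 104 CPM. It had 74.2 and 49.6 CPM in OHC-like cells and nascent HCs, 9.84 CPM in SCs and 5.91 CPM in failing cells. Other ER genes had another order: Herpud1, of ER-associated degradation, was highest in WT_P60 SCs at 1406 CPM and 84.3 to 369 CPM elsewhere, and Pdia4, a disulfide isomerase, had 10.6 CPM in OHCs against 209 to 386 CPM in the other groups.

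Of 20 cytosolic cochaperone and prefoldin genes, 0 were past 4-fold higher (all genes 11.7%) and 3 lower (19.1%) in WT_P30 OHCs over WT_P60 SCs. In SCs failing to become HCs over WT_P60 SCs, 1 was higher (12.7%), Naca at 930 against 180 CPM, and 1 lower (5.76%), Fkbp5. Fkbp5, a glucocorticoid-responsive Hsp90 cochaperone, had 79.9 CPM in WT_P60 SCs and no read in OHCs, with 4.38 CPM in OHC-like cells, 16.5 CPM in nascent HCs and 14.6 CPM in failing cells. Its relative Fkbp4 had 867 CPM in WT_P60 SCs, 163 CPM in OHCs and 288 to 387 CPM in induced cells. No heat shock factor gene passed 4-fold in any comparison: Hsf1 had 34.4 CPM in WT_P60 SCs, 62.1 CPM in WT_P30 OHCs, 66.9 CPM in OHC-like cells, 60.8 CPM in nascent HCs and 29.1 CPM in SCs failing to become HCs. Of 8 mitochondrial folding and protease genes, Grpel2, an exchange factor of mitochondrial Hsp70, was past 4-fold higher in nascent HCs (76.2 CPM) and SCs failing to become HCs (154 CPM) over WT_P60 SCs (16.1 CPM).

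Reads of several abundant members can also fit processed copies elsewhere in the genome. Of 90 members with a gene model, 11 share more than 10% of their 50-base words with other genes, led by Hspa1b, Hspa1a, Hspb1 (48.8%), Hsp90aa1 (47.5%), Hspd1 (39.7%) and Hspa8 (38.6%). The closest copy of Hsp90aa1, Gm12346, was at 1.46 CPM in WT_P60 SCs and 12.9 CPM in WT_P30 OHCs. Gm15459, the copy closest to Hspa8, was at 9.10 and 9.03 CPM in the wild types but at 125 CPM in OHC-like cells, 152 CPM in nascent HCs and 146 CPM in SCs failing to become HCs, so that part of the Hspa8 signal in induced cells is uncertain.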

How the data were processed

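The authors trimmed paired reads with Trimmomatic 0.39 after FastQC 0.11.9, mapped them to mm10 (GRCm38) with HISAT2 2.1.0 and counted reads per gene with HTSeq 0.10.0; StringTie 1.3.5 is also named in the submitters' notes. The annotation release and the strand setting are not given in the sources used here. The deposited values are raw counts per gene, whole numbers, for 75 single cells. The row of a vector element, 0.0254% of all counts, was left out.

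Genes past the filter of edgeR 4.0.16 (minimum count 10, R 4.3.3) were used for medians and counts of genes past 4-fold. CPM used TMM-scaled library sizes, and ratios used means of cells plus 1 CPM. A cell's total count ranged from 4264780 to 22934062. Alternatives used DESeq2 1.42.0 size factors, other thresholds, filters and averages, and leaving out each cell in turn; the last, and the counts over all 10 pairs of groups, were chosen after seeing the data. Scripts ran in Python 3.11.15 with pandas 2.3.3, numpy 2.4.6, scipy 1.17.1 and matplotlib 3.10.9. The ratio of group means was tested on simulated counts with known folds. No single outlying cells were put into those counts, so the test does not cover ratios that rest on 1 cell.

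The rule for naming took the 12 members with the highest mean over the groups, the inducible and chaperonin genes, the 6 with the largest ratio past 4-fold in each direction of a comparison and members without a count in 1 group and with 10 CPM or more in another. From other lists it took 2 per direction, and the text names only some of these. Other genes named were picked to describe a role after their values were seen. The members, the lists and the markers were chosen with earlier results of these data known. No sample was left out.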

Additional observations from a re-analysis of the deposited data

How the results depend on the processing

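With 1 cell per sample and no animal in the labels, values rest on the picked cells, and low members are read in few of them. No paired analysis was possible because no test was made and the numbers in the labels only number cells. Counts of members past 4-fold are given as higher and lower. Among the alternatives, shares of all genes were taken only at 2-fold, by the median of cells and by the mean of log2 values. Counts under the other alternatives have no such share beside them. The cause of each shift was not tested, except where fewer cells or genes, or another threshold, set it.

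With DESeq2 size factors 5 members were higher in OHCs over SCs, 4 lower in OHC-like cells over OHCs, 1 higher and 0 lower in OHC-like cells over nascent HCs, and the median of nascent HCs over failing cells was -0.0068; these factors shifted the median of all genes by 0.26 in OHCs over SCs and by -0.40 in OHC-like cells over OHCs, -0.18 in nascent HCs over SCs and -0.19 in nascent HCs over failing cells. Library size alone and TMMwsp each gave 2 lower in OHC-like cells over OHCs, where they shifted that median by -0.23 and -0.11; their other shifts past 0.1 lay between -0.12 and -0.14. With no filter beyond 1 count, members that failed the main filter were counted too, so these counts come from a larger set. There 5 were higher in OHCs over SCs, 9 higher in OHC-like cells over SCs, and 11 higher and 3 lower in OHC-like cells over OHCs. In the same set 7 were lower in nascent HCs over failing cells, and 1 higher and 2 lower in OHC-like cells over nascent HCs.

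At 2-fold the counts were 8 and 18 (OHCs over SCs), 17 and 9 (OHC-like over SCs), 16 and 5 (nascent over SCs), 15 and 6 (failing over SCs), 21 and 7 (OHC-like over OHCs), 9 and 13 (OHC-like over failing), 10 and 9 (nascent over failing) and 1 and 9 (OHC-like over nascent); of all genes 10.5% to 37.9% were higher and 11.6% to 31.8% lower at 2-fold. With 10 CPM added, 3 were lower in OHCs over SCs, 1 and 0 in OHC-like over SCs, 2 and 0 in nascent over SCs, 0 lower in failing over SCs, 2 higher in OHC-like over OHCs, 2 higher in OHC-like over failing, and 1 and 2 in nascent over failing. With 0.1 CPM added, 2 were lower in OHC-like over OHCs, 6 higher in nascent over failing and 2 lower in OHC-like over nascent.

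By the median of cells, 17 were lower in OHCs over SCs, 9 and 5 in OHC-like over SCs, 15 higher in nascent over SCs, 5 lower in failing over SCs, 22 higher in OHC-like over OHCs, 10 higher in OHC-like over failing, 13 and 2 in nascent over failing (median 0.49) and 2 lower in OHC-like over nascent, with 6.00% to 40.0% of all genes higher and 4.27% to 30.0% lower. By the mean of log2 values, 8 were higher in OHC-like over SCs, 11 in nascent over SCs (median 0.94), 2 in failing over SCs and 17 in OHC-like over OHCs, 2 were lower in OHC-like over failing, 8 and 1 differed in nascent over failing (median 0.81), and 2 were lower in OHC-like over nascent, with 1.55% to 33.2% of all genes higher and 1.68% to 24.0% lower. Counts summed over cells gave 1 lower in nascent over SCs. Thinning to the smallest total gave 2 lower in OHC-like over nascent, and keeping series B, D and E of OHC-like cells and nascent HCs and series A and C of failing cells gave 5 higher in nascent over failing and 2 lower in OHC-like over nascent.

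Left out in turn, single cells moved the counts between 3 and 4 higher and 8 and 10 lower (OHCs over SCs), 4 to 6 and 2 to 4 (OHC-like over SCs), 5 to 6 and 2 (nascent over SCs), 4 to 7 and 1 to 4 (failing over SCs), 5 to 9 and 1 to 3 (OHC-like over OHCs), 3 to 5 and 5 to 8 (OHC-like over failing), 3 to 5 and 1 to 5 (nascent over failing) and 0 and 1 to 3 (OHC-like over nascent). The member share of reads without the most abundant member was 1.14% in SCs and 1.40% in OHCs. Ratios that turned sign were Hspa1b in OHC-like over SCs (0.18 by medians), Cryab in nascent over SCs (-0.85 by medians), Hsph1 in failing over SCs (-2.12 by medians, -0.039 by mean log2) and Cryab in OHC-like over OHCs (-0.33 in series B, D and E). Of 59 named ratios past 4-fold, 14 stayed past it under every alternative.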
